A study of Mus musculus with 6 samples.

Results

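Ifng, Tnf, Csf2, Lta and Il17a were followed as a set of effector cytokine genes of lymphocytes. These 5 genes were taken by name from the 34187 genes of the deposited count matrices and read in 2084 cells that the study had annotated as T or NK cells, by annotated cluster and by treatment. The cells came from subcutaneous tumors of 6694c2vTRP1, a mouse pancreatic cancer line of the KPC type, grown in C57BL/6 mice. The mice received 2 intraperitoneal doses from day 8, of PBS, of 26 µg mono-IL10, which is IL-10 made as a monomer, or of 30.6 µg IL10/2-Trikine, in which mono-IL-10 carries a further module that brings in the IL-2 receptor beta chain. Tumors were taken on day 14, CD45+ cells were isolated with beads, and 5 mice per treatment were marked by hashtag antibodies and pooled into 1 library for each treatment. Treatment and library therefore cannot be told apart, and p-values compare mice within that limit.

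The PBS library held 516 annotated cells, 348 of them with a mouse. The mono-IL10 library held 843, with 635 assigned, and the IL10/2-Trikine library held 725, with 400 assigned. The median depth per annotated cell was 2780 UMIs (unique molecular identifiers, each counting 1 captured RNA molecule) for PBS, 3959 for mono-IL10 and 2635 for IL10/2-Trikine. A share of cells with at least 1 UMI was therefore read together with the level in CPM (counts of a gene scaled to a fixed total of UMIs) and with the share after thinning every cell to 1500 UMIs. Pairs of libraries shared 408 to 700 barcode sequences over all their barcodes and 0 among annotated cells. T cell markers, summed over 6 genes, stood at 272 CPM in the NK cluster and at 4267 in act_CD4T, the activated CD4 T cell cluster. NK cell markers stood at 3796 CPM in the NK cluster and at 670 in act_CD4T. The Cycling_T cluster of the IL10/2-Trikine library went against its label, with 3189 CPM of NK markers against 1065 of T cell markers. In the gdT/NKT cluster (gamma-delta and NKT cells) of that library NK markers, at 2866 CPM, exceeded T cell markers, at 1507, but by cell the order turned. At least 3 T cell markers were held by 41.5% of its 53 cells and at least 3 NK markers by 28.3%. The naive_T cluster, with 25 cells, had 940 CPM of T cell markers, and 12.0% of its cells held at least 3 of the 6. The act_CD4T cluster carried 2616 CPM of 6 regulatory T cell markers, with at least 3 of them in 73.3% of its cells, against 10488 CPM and 99.2% in the Treg cluster. These markers were Foxp3, Il2ra, Ikzf2, Ctla4, Tnfrsf18 and Tnfrsf4, and Foxp3 was not read apart from the rest. The naive_CD8T cluster carried 552 CPM of the 6 naive T cell markers, close to the 465 of the NK cluster, whereas naive_CD4T carried 1480.

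The 5 genes differ in their roles. Ifng encodes interferon gamma, the signature cytokine of NK cells and of type 1 CD4 and CD8 T cells, which activates macrophages and raises antigen presentation through the receptor chains Ifngr1 and Ifngr2. Tnf and its neighbor Lta encode related ligands of the TNF receptors. Tnf is a major product of myeloid cells as well as of T cells, and Lta (lymphotoxin alpha) is made mainly by lymphocytes. Csf2 encodes GM-CSF, a growth and activation factor for granulocytes and macrophages that activated T cells secrete and that many carcinoma cells, including pancreatic ones, can also make. Il17a is the defining cytokine of type 17 T cells and of some gamma-delta T cells, and it draws neutrophils into tissue. All 5 are made on stimulation, from short-lived transcripts.

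Ifng was the most widely detected of the 5. It gave 464 UMIs in 242 of the 2084 cells (11.6%), and 159 of these cells had a single UMI. Csf2 gave 322 UMIs in 63 cells (3.02%), Tnf 69 UMIs in 58 cells (2.78%), Lta 31 UMIs in 28 cells (1.34%) and Il17a 7 UMIs in 4 cells (0.192%). None of the 5 was detected in 1726 cells, 1 was detected in 324, 2 in 31 and 3 in 3 cells. Ifng and Csf2 were found together in 19 cells, which was 7.85% of the Ifng-positive and 30.2% of the Csf2-positive cells. Ifng and Tnf were found together in 8 cells, Tnf and Csf2 in 7, Ifng and Lta in 4, and Csf2 and Lta in 2. No cell held Il17a together with any of the others.

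Most UMIs of the 5 genes, and nearly all of Csf2 and Tnf, lay outside the annotated cells once all barcodes of the libraries were read. Of 104682 barcodes past the study's filters (at least 1000 genes and at most 10% mitochondrial UMIs), 2084 were annotated T and NK cells. These held 13.4% of the Ifng UMIs, 15% of Lta and 4.52% of Il17a, but 0.391% of Csf2 and 0.100% of Tnf. Barcodes outside the annotation were sorted by marker genes, which needed 4 of 6 markers of a type and fewer than 3 of any other. Csf2 was detected in 4963 of 21587 barcodes with tumor epithelial markers such as Krt8, Krt18 and Epcam (23.0%), against 0.578% of 23183 macrophage or monocyte barcodes and 0.665% of 1653 fibroblast barcodes. It was also found in 10 of 83 mast cell or basophil barcodes (12.0%). Tnf was detected in 37.8% of the macrophage or monocyte barcodes and in 53.9% of 1082 neutrophil barcodes. Its share in annotated T and NK cells, 2.78%, lay beside 4.59% of tumor epithelial and 2.72% of fibroblast barcodes, neither of which is a usual source of Tnf. Those barcodes were deeper, with library medians of 10081 to 29298 UMIs for tumor epithelial and 5274.5 to 16914 for fibroblast barcodes. In CPM, Tnf stood at 11.7, 9.14 and 5.21 in annotated cells of the PBS, mono-IL10 and IL10/2-Trikine libraries and at 4.87, 1.62 and 5.95 in fibroblast barcodes. The PBS and mono-IL10 values of annotated cells thus lay above those of fibroblast barcodes and the IL10/2-Trikine value beside them. Tnf was also detected in 52 of 434 barcodes with T cell markers outside the annotation (12.0%) and in 12 of 56 with NK cell markers (21.4%). How much of the Tnf in any of these barcodes came from free RNA was not tested. Csf2, at 17 to 74.5 CPM in the annotated cells of the libraries, lay above the 1.78 to 4.66 of macrophage or monocyte barcodes.

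**Figure D1:**
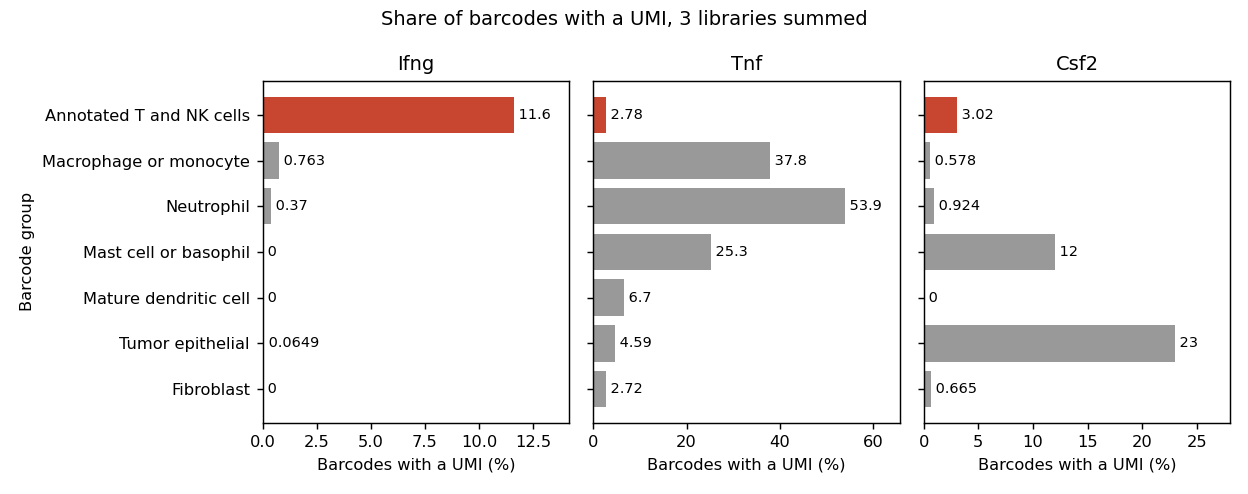
Percent of barcodes with at least 1 UMI (x axis, linear, a scale for each gene) of Ifng, Tnf and Csf2 in the annotated T and NK cells (red) and in barcodes outside the annotation grouped by marker genes (grey), with the 3 libraries summed. Ifng was at 11.6% in annotated T and NK cells and at 0.763% in macrophage or monocyte barcodes, whereas Tnf reached 53.9% in neutrophil barcodes and Csf2 23.0% in tumor epithelial barcodes.

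Ifng was detected mainly where lymphocyte markers were. It was found in 0.763% of macrophage or monocyte barcodes and in 0.0649% of tumor epithelial barcodes, against 11.6% of the annotated cells and, outside the annotation, 33 of 434 barcodes with T cell markers (7.60%) and 7 of 56 with NK cell markers (12.5%). Lta was found in 0.0992% of macrophage or monocyte and in 0.0649% of tumor epithelial barcodes, against 1.34% of the annotated cells, but outside the annotation it was also rare where lymphocyte markers were, in 1 of the 434 T cell barcodes (0.230%) and 0 of the 56 NK cell barcodes. Many UMIs of these genes nevertheless lay in 11737 barcodes that carried at least 3 T or NK markers together with at least 3 markers of another type, with 69.4% of all Ifng UMIs, 48.5% of Lta and 54.2% of Il17a. Ifng was detected in 9.52% of these mixed barcodes, in 10.6% of 245 further barcodes with T or NK markers alone, and in 0.426% of 42290 without T or NK markers. The mixed barcodes were not in the annotation, and how many of them hold more than 1 cell was not tested.

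Ifng was detected in 10 of the 12 annotated clusters. The clusters were made from the transcripts of these same cells, so clusters were not tested against each other. Intervals set side by side, here and for the other genes, describe counting error over pooled cells only. Over the 3 libraries summed, which differ in Ifng share and makeup, the activated CD4 T cells led, with 42 of 172 cells (24.4%, exact 95% interval 18.2% to 31.5%), followed by Cycling_NK with 14 of 68 (20.6%) and Cycling_T with 52 of 349 (14.9%). The gdT/NKT cluster had 22 of 206 (10.7%) and the NK cluster 82 of 795 (10.3%). The naive_CD8T cluster had 18 of 200 (9.0%) and naive_CD4T 6 of 73 (8.22%), and neighbors in this order all had overlapping intervals. Regulatory T cells had 2 of 127 (1.57%), and 0 of 32 Cycling_Treg and 0 of 21 Th17/ILCs cells had a UMI. By counting error alone this allows shares of up to 9.38% and 14.3%, taken as 3 counts over the cells and not as exact limits. Within libraries, among clusters of at least 10 cells, act_CD4T had the highest share with PBS (19.6%), and Cycling_NK stood beside it with mono-IL10 (30.0% of 10 cells, against 29.5%) and with IL10/2-Trikine (18.5% of 54, against 17.9%). The order of the others differed by library. With PBS the NK cluster, at 2.35%, lay below naive_CD4T (13.3%) and naive_CD8T (7.89%), and with mono-IL10 it lay above both, at 15.8% against 4.76% and 8.75%. The summed interval of the Treg cluster (0.191% to 5.57%) lay below those of act_CD4T, Cycling_NK, Cycling_T, gdT/NKT and NK. Within libraries this held with mono-IL10 alone, for act_CD4T, Cycling_T and NK, where 0 of 52 Treg cells were positive (0% to 6.85%). The 26 Ifng-positive cells of the clusters named naive carried 545 CPM of naive markers, against 782 in the 272 negative ones, at like depth (medians of 2760.5 and 2722.5 UMIs). Thinning of the summed libraries kept act_CD4T and Cycling_NK in front, at 13.8% and 11.5%, and put Cycling_T at 7.42%, gdT/NKT at 6.80%, NK at 5.40% and Treg at 1.40%. The ISG+CD8T cluster had 2 positive cells of 16, and 1 of them, from a mono-IL10 mouse, held 41 UMIs, the most of any cell.

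**Figure D2:**
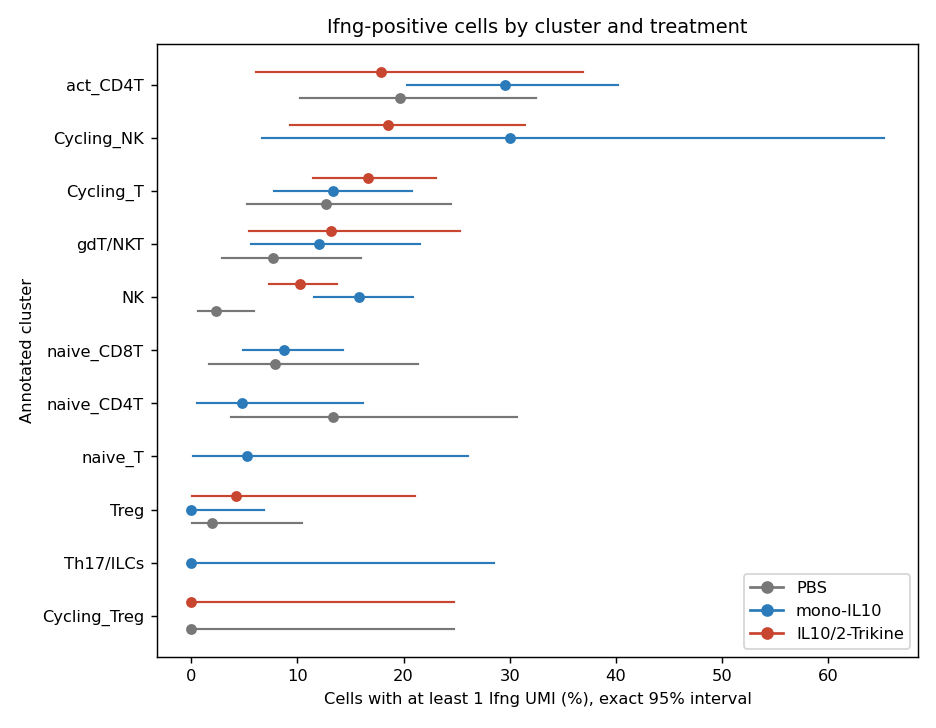
Percent of cells with at least 1 Ifng UMI (x axis) in each annotated cluster (y axis) by treatment, with points for the share, bars for the exact 95% binomial interval and only groups of 10 or more cells. The PBS point of the NK cluster, at 2.35%, stands below both treated points, at 15.8% and 10.2%, and its bar does not reach theirs.

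In the NK cluster the Ifng share with PBS lay below that with either cytokine, and the intervals did not overlap. With PBS, 4 of 170 cells were positive (2.35%, interval 0.645% to 5.91%), with mono-IL10 40 of 253 (15.8%, 11.5% to 20.9%) and with IL10/2-Trikine 38 of 372 (10.2%, 7.33% to 13.8%). The level was 6.43, 43.3 and 53.2 CPM in the same order, so that mono-IL10 led by share and IL10/2-Trikine by level. The mono-IL10 cells of this cluster were the deepest, with a median of 4846 UMIs against 3086 and 2531.5. After thinning the shares were 0.799%, 6.89% and 6.49%. In act_CD4T, 11 of 56 PBS cells (19.6%), 26 of 88 mono-IL10 cells (29.5%) and 5 of 28 IL10/2-Trikine cells (17.9%) were positive, and after thinning 12.8%, 14.2% and 14.2%. In Cycling_T the shares were 12.7%, 13.3% and 16.7%, and after thinning 4.99%, 4.24% and 10.4%. NK markers in the NK cluster moved with treatment too, at 2168, 3429 and 5288 CPM summed over Ncr1, Klrb1c, Klre1, Klrk1, Eomes and Gzma. The 6 were not read apart here. At least 3 of them were held by 55.9%, 79.4% and 65.1% of the cells, so that by cell mono-IL10 led. The part of NK markers in the Ifng values was not tested. These intervals cover counting error only, since the cells of a library share their mice.

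Each mouse was then taken as 1 sample. Among NK cells (NK and Cycling_NK together, mice with at least 10 such cells) the 5 PBS mice had 0%, 0%, 3.23%, 4.17% and 5.00% Ifng-positive cells. The 4 mono-IL10 mice had 7.27%, 15.4%, 18.4% and 20%. The 5 IL10/2-Trikine mice had 3.70%, 7.69%, 8.70%, 12.9% and 22.2%. All 4 mono-IL10 mice and 4 of 5 IL10/2-Trikine mice thus lay above every PBS mouse. The fifth mono-IL10 mouse, with 9 NK cells, was left out.

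The mean share of Ifng-positive NK cells was 2.48% ± 2.35 (SD, n = 5) with PBS, 15.3% ± 5.66 (n = 4) with mono-IL10 and 11% ± 7.05 (n = 5) with IL10/2-Trikine. The exact two-sided permutation test gave p = 0.00794 for mono-IL10 against PBS, the smallest value this design allows, and p = 0.0238 for IL10/2-Trikine against PBS. Adjusted over the 45 tests (5 genes, 3 comparisons and 3 sets of cells) by the Benjamini-Hochberg method, both became 0.268 in this permutation test and did not pass 0.05. The next ranges hold the shifts that the same test did not reject at an unadjusted p of 0.05. They ran from 5.65 to 18.3 points for mono-IL10 and from 1.65 to 17.2 points for IL10/2-Trikine. Such ranges, here and below, ignore the adjustment. The absence of a difference can thus lie outside them where the adjusted p did not pass. Thinned shares were 0.644%, 6.22% and 7.11%, with unadjusted permutation p = 0.00794 and p = 0.0159. In the edgeR test described below, 0.297% of genes in NK cells passed an adjusted p of 0.05 for mono-IL10 against PBS. The rates were 4.42% for IL10/2-Trikine against PBS and 2.38% for IL10/2-Trikine against mono-IL10. At an unadjusted p under 0.05 edgeR had 273, 421 and 379 of 2355 genes in the same order. No rate over all genes was computed for the permutation test.

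**Figure D3:**
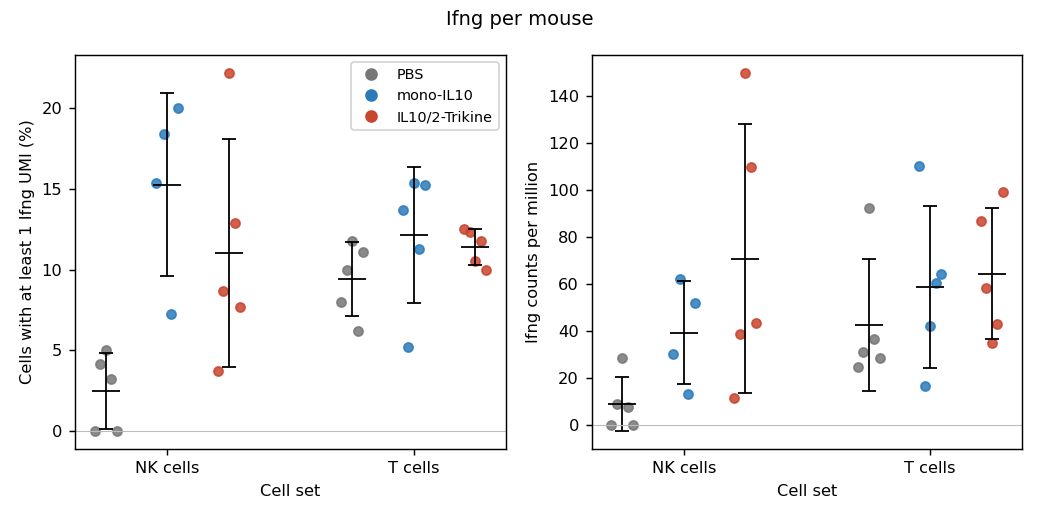
Ifng in each mouse as percent of positive cells (left) and CPM of the summed cells (right), for NK cells and T cells by treatment, where points are mice, long marks are means and bars are SD. The 4 mono-IL10 mice lie above the 5 PBS mice in the share of NK cells, with means of 15.3% and 2.48%, while T cells overlap between all treatments.

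The 2 agents did not differ in Ifng beyond the spread between mice. Among NK cells the share was 4.23 points lower with IL10/2-Trikine than with mono-IL10, with a range of unrejected shifts from -13.7 to 6.64 points, and the level was 31.4 CPM higher, with a range from -39.5 to 120 CPM. The sign of this difference turned with the measure, since the thinned share was 0.885 points higher with IL10/2-Trikine. The level of Ifng in NK cells was 8.93 ± 11.5 CPM with PBS, 39.2 ± 22.0 with mono-IL10 and 70.6 ± 57.2 with IL10/2-Trikine (SD over mice). Both ranges span 0.

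T cells of the treatments overlapped in Ifng. This set includes Cycling_T, which made up 10.7% of the annotated PBS cells, 14.2% with mono-IL10 and 24.0% with IL10/2-Trikine, where 48.3% of its cells had at least 3 NK markers against 23.6% and 9.17%. The share of Ifng-positive T cells was 6.17%, 8.00%, 10.0%, 11.1% and 11.8% in the PBS mice, 5.19%, 11.3%, 13.7%, 15.3% and 15.4% in the mono-IL10 mice and 10.0%, 10.5%, 11.8%, 12.3% and 12.5% in the IL10/2-Trikine mice. The means were 9.41% ± 2.31, 12.2% ± 4.23 and 11.4% ± 1.11 (SD, n = 5 each), with adjusted permutation p-values of 0.833 to 1.0. After thinning they were 5.72%, 4.99% and 7.62%, which turned the sign of mono-IL10 against PBS and of the difference between the agents. Without Cycling_T the differences from PBS were 2.39 points for mono-IL10 and 0.0107 for IL10/2-Trikine, and IL10/2-Trikine lay 2.38 points below mono-IL10. In each mouse the NK share minus the T cell share averaged -6.93 points with PBS, 3.92 with mono-IL10 and -0.376 with IL10/2-Trikine. For mono-IL10 against PBS this contrast differed by 10.8 points (exact permutation p = 0.0159, adjusted over 15 tests p = 0.238), and after thinning by 6.06 points with the same p-values. For T and NK cells together the Ifng share was 7.40% ± 1.65, 13.1% ± 3.11 and 11.6% ± 3.60, with exact permutation p = 0.0159 for mono-IL10 and p = 0.0317 for IL10/2-Trikine against PBS, which were 0.268 and 0.286 after adjustment. After thinning the shares were 4.21%, 5.64% and 7.64%, and the difference of mono-IL10 from PBS fell from 5.66 to 1.43 points. The cell makeup moved with these values. The NK cluster was 51.3% of the IL10/2-Trikine cells against 32.9% with PBS and 30.0% with mono-IL10, and naive_CD8T was 0.276% against 7.36% and 19.0%. If every cell had the Ifng share of its cluster over the 3 libraries, the mice would average 10.4%, 11.5% and 12.4%, a difference from PBS of 1.09 points for mono-IL10 and 1.95 for IL10/2-Trikine. These cluster shares hold treatment differences themselves. That of the NK cluster was 10.3%, well above its share with PBS as given above, so that the result depends on this choice.

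The level of Ifng was also tested on counts summed per mouse. In edgeR's quasi-likelihood test over 4595 genes of T and NK cells together, the log2 fold change of Ifng was 0.81 ± 0.33 (SE) for mono-IL10 against PBS (adjusted p = 0.236) and 1.01 ± 0.37 for IL10/2-Trikine against PBS (adjusted p = 0.0847). Between IL10/2-Trikine and mono-IL10 it was 0.19 ± 0.29, with a normal 95% interval from -0.38 to 0.76. Of the 5 genes, 0 passed in the 3 comparisons, in which 1.11%, 9.49% and 8.84% of all genes tested did, and Ifng and Csf2 alone had enough counts to be tested. Without the third PBS mouse, whose Ifng level of 73.7 CPM stood apart from the 19.3 to 27.3 of the other PBS mice, the IL10/2-Trikine value was 1.5 with an adjusted p of 0.0123 by edgeR. In the first mono-IL10 mouse, 1 cell held 41 of the 83 Ifng UMIs. With its UMIs set to 0, the CPM difference of mono-IL10 from PBS went from 22.2 to 13.9. That of IL10/2-Trikine from mono-IL10 went from 16.5 to 24.7. In T cells these differences went from 16.1 to 3.73 and from 5.70 to 18.1. The edgeR test was not run without this cell. In NK cells alone Ifng had 80 UMIs and did not reach the count filter. With every gene kept, edgeR gave log2 fold changes of 2.02 (adjusted p = 0.199) for mono-IL10 and 2.60 (adjusted p = 0.0105) for IL10/2-Trikine against PBS. The PBS mice held 0 to 2 Ifng UMIs each in NK cells, so that the IL10/2-Trikine call rests on keeping genes of low counts.

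Csf2 was concentrated in a few cells of the act_CD4T cluster, whose regulatory T cell markers lay below those of the Treg cluster, as given above. The Treg cluster itself had a Csf2 share of 1.57%. The act_CD4T cluster held 26 of the 63 positive cells and 245 of the 322 UMIs (76.1%). Its share was 15.1% (10.1% to 21.4%), and the next was 3.44% in Cycling_T, with intervals of counting error that did not overlap. The NK cluster followed with 44 UMIs in 18 of 795 cells (2.26%). Within act_CD4T, 9 of 56 PBS cells held 115 UMIs, 12 of 88 mono-IL10 cells held 119 and 5 of 28 IL10/2-Trikine cells held 11, so that the shares of 16.1%, 13.6% and 17.9% were alike while the counts were not. The highest cells held 75 UMIs with PBS, 34 with mono-IL10 and 4 with IL10/2-Trikine. In the IL10/2-Trikine library the NK cluster held 14 UMIs and Cycling_T 10. The lead of act_CD4T in UMIs thus rests on PBS and mono-IL10. The 5 highest cells held 55.0% of all Csf2 UMIs. Leaving out the cell with 75 UMIs took the PBS level in act_CD4T from 599 to 211 CPM.

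**Figure D4:**
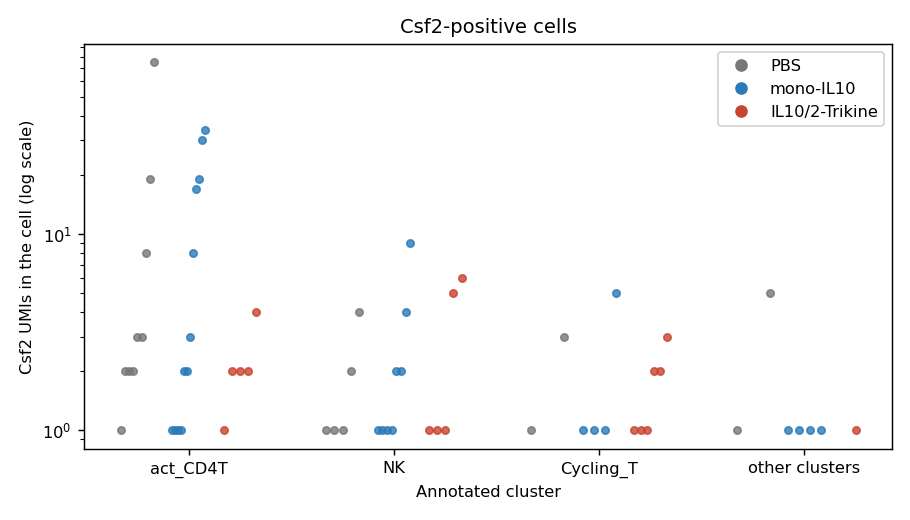
Csf2 UMIs (y axis, log scale) in each of the 63 annotated cells with at least 1, by cluster (x axis) and treatment (color), where each point is a cell. Most cells hold a few UMIs, and the cells with 17 to 75 UMIs are cells of the act_CD4T cluster of the PBS and mono-IL10 libraries.

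Such cells set the highest levels of Csf2 per mouse with PBS and mono-IL10. Over T and NK cells it was 5.1, 7.24, 344, 104 and 0 CPM in the 5 PBS mice, 76.4, 64.8, 82.7, 9.80 and 3.90 in the mono-IL10 mice and 18.7, 25.9, 0, 47.6 and 13.1 in the IL10/2-Trikine mice. The groups overlapped, and a single PBS mouse, the one with the cell of 75 UMIs, stood above every other. The share of positive cells was 3.48% ± 3.36, 3.52% ± 1.92 and 2.56% ± 1.67 (SD, n = 5 each), and the shifts not rejected ran from -4.60 to 4.0 points for mono-IL10 and from -5.16 to 2.77 points for IL10/2-Trikine against PBS. The log2 fold changes by edgeR were -1.11 ± 0.67 (adjusted p = 0.476) and -2.19 ± 0.92 (adjusted p = 0.148). Without the third PBS mouse the mono-IL10 value turned to 0.15, and with the 75 UMIs of the highest cell set to 0 the CPM difference turned from -44.6 to 16.8. With every gene kept these became -1.03 (adjusted p = 0.000588) and -2.18 (adjusted p = 1.52e-10), and IL10/2-Trikine against mono-IL10 -1.15 (adjusted p = 0.0102), so that the Csf2 call rests on the filter of low counts.

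Csf2 of tumor epithelial barcodes was followed by mouse, with hashtags assigned to 10961 of 21587 such barcodes. The level was 57.8, 100.4, 95, 80.9 and 48.9 CPM in the PBS mice, 121, 80.3, 94.0, 89.0 and 75.0 in the mono-IL10 mice and 48.9, 70.1, 70.6, 79.5 and 71.5 in the IL10/2-Trikine mice. IL10/2-Trikine lay 23.8 CPM below mono-IL10, with unrejected shifts from -47.6 to -3.60 (exact permutation p = 0.0159, adjusted over 18 tests p = 0.0714). The IL10/2-Trikine barcodes were also the shallowest, with medians per mouse of 10520 to 12570 UMIs against 23849 to 46894 in the other mice. Summed by library, the level of Csf2 in tumor epithelial barcodes and in annotated cells was 75.9 and 74.5 CPM with PBS, 89.6 and 37.5 with mono-IL10 and 55.3 and 17 with IL10/2-Trikine. The PBS value of annotated cells rests on 134 UMIs, of which 75 lay in 1 cell, and was 32.8 CPM without that cell.

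Tnf was sparse in T and NK cells, and its level in myeloid barcodes was the larger signal. By cluster its share was highest in ISG+CD8T (2 of 16 cells) and Th17/ILCs (2 of 21), followed by Treg with 8 of 127 (6.30%, 2.76% to 12.0%), and neighbors in the order all had overlapping intervals. The Treg cluster held 13 of the 69 UMIs, of which 5 were in 1 cell, and the NK cluster had 15 positive cells of 795 (1.89%). Markers of mast cells and neutrophils were higher among Tnf-positive cells, on very few cells. The 58 positive cells carried 168 CPM of mast cell or basophil markers against 7.64 in negative cells. At least 3 of these markers were held by 1.72% against 0.0494%, and at least 3 neutrophil markers by 3.45% against 0.148%. Macrophage or monocyte markers were at 282 and 285 CPM and tumor epithelial markers at 33.6 and 38.1. The part of such RNA in the Tnf values was not tested. By mouse the share in T and NK cells was 3.62% ± 1.2 with PBS, 3.16% ± 0.44 with mono-IL10 and 2.62% ± 1.15 with IL10/2-Trikine, and the shifts not rejected spanned 0 in the 3 comparisons. These values cover only cells with a mouse, which with IL10/2-Trikine were 400 cells holding 10 of the 11 positive ones. Over all annotated cells 3.88%, 3.20% and 1.52% were positive. The level by mouse was 8.35 CPM with mono-IL10 and 8.77 with IL10/2-Trikine, a difference that turns sign over all annotated cells, at 9.14 and 5.21. In macrophage or monocyte barcodes Tnf stood at 187 ± 36.7 CPM with PBS, 203 ± 19.0 with mono-IL10 and 147 ± 27.9 with IL10/2-Trikine (SD, n = 5 mice each). The last lay 55.7 below mono-IL10 (-92.4 to -18.3, exact permutation p = 0.0238, adjusted p = 0.0714).

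In neutrophil barcodes the Tnf level of every mono-IL10 mouse lay above that of every PBS mouse, a difference that did not pass the adjusted threshold. Other genes of myeloid and tumor barcodes were not tested, so how many separate the mice in this way is not known. The level was 279, 514, 224, 438 and 435 CPM in the PBS mice and 911, 1392, 832, 882 and 761 in the mono-IL10 mice, on 31 to 80 and 32 to 128 barcodes per mouse. The groups did not overlap, and the means of 378 ± 121 and 955 ± 250 differed by 577 CPM, or 2.53 times (exact permutation p = 0.00794, the smallest that 5 mice against 5 allow, adjusted over 18 tests p = 0.0714). The thinned share was 30.5% ± 6.87 with PBS and 51.5% ± 4.75 with mono-IL10, and the median depth per mouse was 3014 to 4927.5 UMIs with PBS and 2824 to 3063 with mono-IL10. IL10/2-Trikine had 2 mice with enough neutrophil barcodes, at 343 and 258 CPM, both below every mono-IL10 mouse. Of the 18 tests on myeloid and tumor barcodes, 0 passed an adjusted p of 0.05 by the permutation test. This count rests on thinning, since the first run of the same tests, with shares that were not thinned, had 6 of 18 past 0.05. There the unchanged CPM differences had adjusted p = 0.0286 for neutrophil Tnf between mono-IL10 and PBS and p = 0.0476 for tumor epithelial Csf2 between the agents by the permutation test. The other 4 were shares of the IL10/2-Trikine mice, Tnf in macrophage or monocyte barcodes and Csf2 in tumor epithelial ones, against PBS and against mono-IL10, each with adjusted permutation p = 0.0286.

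**Figure D5:**
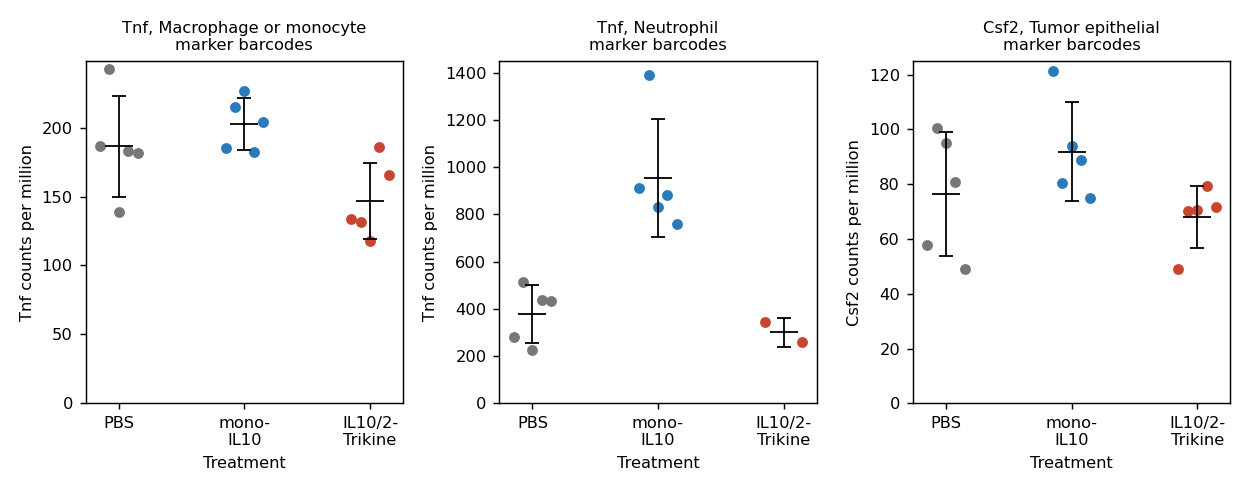
CPM (y axis, linear from 0) of Tnf in neutrophil and in macrophage or monocyte barcodes and of Csf2 in tumor epithelial barcodes, for each mouse by treatment (x axis), where points are mice, long marks are means and bars are SD. The 5 mono-IL10 mice lie at 761 to 1392 for neutrophil Tnf, above the 224 to 514 of the PBS mice, while the other panels overlap.

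Lta and Il17a were rare, and the share of each was highest in the Th17/ILCs cluster. Lta was found in 5 of 21 Th17/ILCs cells (23.8%, 8.22% to 47.2%), in 7 of 172 act_CD4T cells (4.07%) and in 6 of 206 gdT/NKT cells (2.91%). By mouse its share was 3.33%, 0%, 4.23%, 1.79% and 0% with PBS, 1.70%, 1.74%, 2.86%, 0.930% and 1.06% with mono-IL10 and 0%, 1.49%, 0%, 0% and 0% with IL10/2-Trikine. IL10/2-Trikine lay 1.36 points below mono-IL10 (-2.29 to -0.262, exact permutation p = 0.0238, adjusted p = 0.268), on 2 positive cells against 9. Thinned, the shares were 0.173% and 0.544%, a difference of -0.372 points (exact permutation p = 0.167). Il17a was found in 3 Th17/ILCs cells, all from mono-IL10, and in 1 Cycling_T cell. The Th17/ILCs cluster carried 1335 CPM of type 17 and gamma-delta T cell markers, against 104 in gdT/NKT, and had 11 mono-IL10, 9 PBS and 1 IL10/2-Trikine cells. With 0 positive of 9 PBS cells, a share of up to 33.3% was allowed, so that these few cells could not show a difference in Il17a.

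Over all 5 genes, 0 of the 45 permutation tests on the share of positive cells passed an adjusted p of 0.05, and 5 had an unadjusted p under 0.05. The smallest p that these numbers of mice allow passes this adjustment only where several tests reach it together. The count of 0 therefore has little weight as evidence of no difference. Of the 5 tests with an unadjusted p under 0.05, Ifng accounted for 4 and Lta for 1. The Ifng tests are both comparisons with PBS, each in NK cells and in T and NK cells together, which include the NK cells. Il17a had 4 positive cells, too few for any test to reach such a p. By edgeR, 679, 1059 and 1084 of 4595 genes in T and NK cells had an unadjusted p under 0.05 in the 3 comparisons.

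Genes of the same pathways were read from 4 lists in the edgeR test. For mono-IL10 against PBS in T and NK cells, 0 of 3 tested receptors of the 5 cytokines, 0 of 14 inducing receptors and transcription factors, 0 of 7 mRNA decay factors and 0 of 6 other lymphocyte cytokines passed. With IL10/2-Trikine, set against either of the others, 1 of 3, 1 of 14, 0 of 7 and 1 of 6 passed, each of them lower, where 9.49% and 8.84% of all genes passed, so that nothing is read about the lists as such. Ifngr1, the ligand-binding chain of the interferon gamma receptor, fell by 0.37 ± 0.11 (log2, SE) against PBS (edgeR, adjusted p = 0.0380) and by 0.39 ± 0.11 against mono-IL10 (adjusted p = 0.0226). Its level was 752 ± 41.9 CPM with PBS, 732 ± 94.9 with mono-IL10 and 581 ± 101 with IL10/2-Trikine (SD, n = 5 mice each). The same 2 comparisons gave lower Rora, a transcription factor of type 17 and innate lymphoid cells, with log2 fold changes of -1.19 ± 0.18 and -0.65 ± 0.18. They also gave lower Ltb, the partner chain of Lta in the membrane-bound lymphotoxin, with -1.13 ± 0.22 and -1.29 ± 0.21. Without Cycling_T, Rora and Ltb passed in both comparisons (edgeR), and Ifngr1 passed against mono-IL10 (-0.37, adjusted p = 0.0408) but not against PBS (-0.31, adjusted p = 0.106). The 7 decay factors, which shorten the life of cytokine transcripts, had 0 calls in either comparison. Their median log2 fold change was -0.51 against PBS and -0.06 against mono-IL10, where the median of all genes was -0.01 and -0.00.

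In T cells alone Ifngr1 fell by 0.47 ± 0.13 against PBS and by 0.47 ± 0.12 against mono-IL10, where 8.97% and 12.3% of all genes passed, against 1.72% for mono-IL10 against PBS. Il1rl1, the receptor of IL-33, rose by 1.68 ± 0.51 against mono-IL10 in T cells (edgeR, adjusted p = 0.0300), a call that DESeq2 did not make (adjusted p = 0.159). Rora (-0.97 ± 0.20 against PBS) and Ltb (-1.12 ± 0.31 and -1.32 ± 0.29) also passed there. Without Cycling_T, whose share and NK markers differed between the libraries as given above, the edgeR calls of Ifngr1, Rora and Ltb in T cells were lost, on fewer cells. The log2 fold changes of Ifngr1 were then -0.45 ± 0.16 and -0.50 ± 0.16 (adjusted p = 0.182 and 0.0709 by edgeR) and those of Ltb -1.12 ± 0.48 and -1.35 ± 0.45 (adjusted p = 0.272 and 0.0902), about as large as before with a larger SE. Rora against PBS was -0.61 ± 0.25 (adjusted p = 0.248 by edgeR), and Il1rl1 still passed (2.28, adjusted p = 0.0162). The part of the cell makeup in these differences was not tested further. In NK cells Rora fell by 1.11 ± 0.30 with IL10/2-Trikine against PBS, the 1 call among the lists there.

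Cells with Ifng were also set against cells without it in the same mouse. In T cells (7 mice with at least 5 cells of each kind) 3 of 1952 genes passed, or 0.154%, all higher in Ifng-positive cells and each with an adjusted p of 0.0470 by edgeR. Tnfsf11, the cytokine RANKL, was at 276 ± 181 against 98.4 ± 20.2 CPM (log2 fold change 1.56 ± 0.30, higher in 5 of 7 mice). Rgs16, a regulator of G protein signaling, was at 361 ± 274 against 113 ± 40.5 (1.72 ± 0.33, 6 of 7 mice). Prf1, which encodes the pore-forming protein perforin, was at 271 ± 262 against 103 ± 74.0 (1.39 ± 0.27, 6 of 7 mice). These 3 calls were lost when every cell was thinned to 1500 UMIs, with 0 genes called. Ifng-positive and Ifng-negative T cells can also differ in cluster makeup, since the Ifng share ran from 0% in Th17/ILCs to 24.4% in act_CD4T. The test blocked on the mouse alone, and the part of the clusters in these calls was not tested.

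In NK cells (6 mice) 0 of 776 genes passed by edgeR, with 63 at an unadjusted p under 0.05. Gzmb and Gzma, the granule proteases granzyme B and A, were chosen after their values were seen. Gzmb was at 2818 ± 564 CPM in Ifng-positive and 1880 ± 520 in Ifng-negative NK cells (log2 fold change 0.63 ± 0.13, higher in 6 of 6 mice), and Gzma at 5841 ± 4860 and 3169 ± 2250 (0.76 ± 0.16, 5 of 6 mice), each with an adjusted p of 0.0549 by edgeR. Ifng-positive cells of all clusters held 3314 CPM of NK markers, a list that includes Gzma, against 2191 in negative cells. T cell markers were at 2186 CPM in positive and 1837 in negative cells. The positive cells had a median of 3467.5 UMIs against 3033.5.

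Over 20 sums of a cluster in a library, the genes whose level was most like that of Csf2 among 7261 were Ptprs (Pearson's r = 0.85), Tnfsf11 (0.85), Nrp1 (0.84), Ece1 (0.83) and Ccl1 (0.83). For Ifng they were Rnf126 (0.81), Thy1 (0.73), Metap1 (0.72), Nemp2 (0.72) and Rps26 (0.72). The sums share 3 libraries and their depths, and these values describe likeness of level only.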

How the data were processed

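Single-cell 5' RNA libraries of 3 treatments, 5 hashtagged mice each, were read as the deposited count matrices of UMIs per gene and barcode (Cell Ranger, per the file headers; GRCm39). The authors filtered and annotated the T and NK cells; their processing notes name Seurat 5.1.0 and DESeq2 1.46.0. The deposited annotation also held 7858 cells of a group not used here. The percent of mitochondrial UMIs per cell in the deposited table came from the authors, who kept cells at 10% or less. UMI totals of annotated cells were 2635 to 3959 at the median. Members and lists were chosen with earlier results of these data known.

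A cell was positive with at least 1 UMI. Shares per mouse (at least 10 cells) entered two-sided exact permutation tests with Benjamini-Hochberg adjustment. Ranges of a difference are the shifts that test did not reject at an unadjusted p of 0.05. Counts summed per mouse were tested with edgeR 4.0.16 (quasi-likelihood, TMM, filterByExpr, all treatments in 1 fit) in R 4.3.3, and DESeq2 1.42.0 was an alternative. Ifng-positive and Ifng-negative sums were fitted with the mouse as a block. Scripts were tested on simulated data. Intervals are exact binomial at 95% and, like limits from a count of 0 (3 counts), cover counting error only. No doublet caller was run, and the deposited annotation holds only cells called hashtag singlets or negative by the authors.

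Genes named were the 5 members, the 5 genes most like each member with at least 100 UMIs, the called genes with at least 50 counts in the Ifng comparison (up to 10 a direction), and list genes that passed. Gzma and Gzmb were named outside this rule, after their values were seen. Barcodes outside the annotation were grouped by 6 markers per type. Tests on them by mouse, and the hashtag rule behind them (the first hashtag at least 3 times the second), were chosen after seeing the data, as were the values of list genes without Cycling_T. The tests by mouse were first run on CPM and unthinned shares, which differed with depth, and then on CPM and thinned shares.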

Additional observations from a re-analysis of the deposited data

Results flagged for a closer look

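Csf2 and Tnf had nearly all of their UMIs outside the cells the comparisons were made on, which held 0.391% and 0.100% of them. Those cells were 2084 of 104682 barcodes, and they held 13.4% of Ifng, 15% of Lta and 4.52% of Il17a UMIs. Csf2 had a UMI in 23.0% of tumor epithelial barcodes, and Tnf in 37.8% of macrophage or monocyte and 53.9% of neutrophil barcodes, each above the share in the annotated T and NK cells. Those barcodes differ in depth, and thinned to 1500 UMIs the shares in the PBS, mono-IL10 and IL10/2-Trikine libraries were 5.98%, 7.43% and 5.23% for Csf2 in tumor epithelial barcodes against 2.54%, 1.71% and 1.57% in annotated cells. For Tnf they were 20%, 20.6% and 15.9% in macrophage or monocyte and 32.9%, 50.7% and 27.9% in neutrophil barcodes, against 1.78%, 1.51% and 0.759%. In CPM, Csf2 of the PBS library was 75.9 in tumor epithelial barcodes and 74.5 in annotated cells, or 32.8 without the 1 annotated cell that held 75 of the 134 UMIs.

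Single mice stood apart from the rest of their group in 5 of 38 groups examined. Chance alone gives about 1 in 20 of independent groups, but these are not independent, since T cells are part of T and NK cells, and 3 of the 5 are the same mouse. The third PBS mouse had an Ifng level of 73.7 CPM in T and NK cells and 92.3 in T cells, and a Tnf level of 20.5 in T and NK cells, each above the other PBS mice. The first mono-IL10 mouse had 6.82% Csf2-positive T and NK cells. The second mono-IL10 mouse had a Tnf level of 1392 CPM in neutrophil barcodes.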

How the results depend on the processing

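The mono-IL10 library was the deepest, and differences between the 2 agents turned sign with how depth was treated; the cause was not tested. Thinned to 1500 UMIs, Ifng for IL10/2-Trikine against mono-IL10 was 2.00 points in T and NK cells, 0.885 in NK cells and 2.63 in T cells, and in CPM 16.5, 31.4 and 5.70. Thinning also gave -0.738 points for Ifng in T cells and -0.568 for Csf2 (mono-IL10 against PBS), and 0.0561 for Tnf (IL10/2-Trikine against mono-IL10, 0.423 in CPM). With at least 2 UMIs, mono-IL10 against PBS was 0.312 points for Tnf and -0.691 for Csf2. Csf2 was -44.6 in CPM, 16.8 without its highest cell and -2.44 points in cells of at least 2000 genes. The Ifng log2 fold change between the agents was -0.10 without Cycling_T and -0.076 in T cells with every gene kept. Ifng for IL10/2-Trikine against PBS passed with every gene kept (1.0, adjusted p = 0.0284 by edgeR).

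Leaving out 1 mouse at a time gave -0.832 to 0.954 points (Csf2 share) and -0.758 to 0.0403 points (Tnf share) for mono-IL10 against PBS, -2.48 to 0.0676 points for Ifng in T cells between the agents, log2 fold changes of -1.58 to 0.15 for Csf2 (mono-IL10 against PBS), -0.15 to 0.53 for Ifng in T cells between the agents and 0.87 to 1.5 for Ifng (IL10/2-Trikine against PBS). For Csf2 the sign turned without the third PBS mouse. Neutrophil Tnf was 468 to 626 CPM, with adjusted p from 0.0476 to 0.0714 in permutation tests, and the 3-marker rule gave 544 (adjusted p = 0.0476). Between the agents, macrophage Tnf had adjusted p from 0.0357 to 0.117 and tumor Csf2 from 0.0476 to 0.117 in the same permutation tests, and the 3-marker rule gave -55.1 CPM for macrophage Tnf (adjusted p = 0.0476).

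The Ifng-positive comparison called 2 genes in NK cells and 0 in T cells after thinning, 70 and 98 with every gene kept, and 1 in T cells with no replicate block. Thinned Ifng shares were 4.99%, 4.24% and 10.4% in Cycling_T, 6.89% and 6.49% in NK (mono-IL10, IL10/2-Trikine) and 14.2% in act_CD4T (mono-IL10). In PBS Treg cells Ifng (1 of 51 cells) kept its share under thinning and was at 0% among cells with a mouse. Barcodes with 3 markers gave 21.2% (Csf2, tumor epithelial) and 37.1% (Tnf, macrophage or monocyte).

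Genes called by edgeR (mono-IL10 against PBS, IL10/2-Trikine against PBS, then between the agents) numbered 51, 436 and 406 in T and NK cells, 7, 104 and 56 in NK cells and 55, 286 and 391 in T cells. Sums thinned to the lowest total gave 20, 272 and 222, then 5, 44 and 10, then 13, 103 and 125. Every gene kept gave 156, 46 and 135 for mono-IL10 against PBS. T cells without Cycling_T gave 26, 41 and 137. DESeq2 gave 12 in NK cells for mono-IL10 against PBS, and a fit of only the groups compared gave 86 in NK cells between the agents. Without 1 mouse, these counts ran from 29 to 63, 293 to 458 and 307 to 422, from 3 to 13, 61 to 101 and 9 to 72, and from 20 to 70, 151 to 304 and 277 to 417. No paired analysis was possible because hashtag numbers do not tie mice of different libraries together.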
